A study of Homo sapiens with 6 samples.

Results

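The RAB GTPases were described in KGN, a line grown from a human granulosa cell tumour of the ovary, 48 hours after transfection with either negative control siRNA or siRNA against the long noncoding RNA SNHG5, with 3 libraries in each group. The labels give both groups the same line and culture medium, with the genotype WT for the control libraries and SNHG5 knockdown for the others. They do not say how many siRNA sequences were used. The members were all gene names of the count table made of RAB, a number and at most 1 letter from A to D, which gave 63 of its 20030 rows. The level of SNHG5 was not analysed here, and no value is given for the knockdown.

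RAB proteins are small GTPases that mark membranes of the secretory and endocytic routes. Exchange factors (GEFs) load them with GTP on a given membrane, the GTP form binds effectors such as motors and tethers, and GTPase-activating proteins (GAPs) switch them off. A lipid anchor added after translation holds them on membranes. Granulosa cells secrete peptide hormones and binding proteins and take gonadotropin receptors and lipoproteins into endosomes, steps in which RAB proteins take part.

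Total counts were 18232634 to 22088913 per library. Spearman correlations of log2 CPM (counts scaled to library size) ranged from 0.9961 to 0.9984 for libraries of 1 group and from 0.9868 to 0.9892 across the groups. Library SNHG5 siRNA replicate 2 stood apart from the other libraries of its group, at a chi-square over its degrees of freedom of 8.61 and 8.81. The same measure was 1.91 between the other 2 SNHG5 siRNA libraries and 3.10 to 4.41 between control libraries. The granulosa markers FOXL2 (24.1 to 33.6 CPM) and NR5A1 (35.0 to 39.1 CPM) were present, FSHR was low (1.16 to 3.42 CPM) and AMHR2 was at 1 count or less in every library. INHA, at 1 to 11 counts per library, was like AMHR2 too low to test, and WT1 was near the floor at 7 to 15 counts. The 10 granulosa markers summed to 1021 to 1112 CPM with control siRNA and 498 to 543 CPM with SNHG5 siRNA. FST (follistatin) alone went from 823 to 308 CPM on average, and the other 9 summed to 231 to 236 CPM and 203 to 216 CPM. Of the 8 granulosa markers tested, 4 fell, 0 rose and 4 did not pass, beside 19.9% lower and 20.3% higher of all genes tested. Beside FST, those that fell were FSHR (log2 fold change -1.15, edgeR adjusted p = 2.32e-04), NR5A2 (-0.93, adjusted p = 0.0037) and GATA4 (-0.37, adjusted p = 1.92e-05). FOXL2, NR5A1, INHBA and WT1 did not pass, and the part of these markers in the RAB values was not tested. Of 5 leukocyte markers CD3E and LYZ were among those at 0 in every library, and the sum of the list was 1.94 to 2.80 CPM.

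Levels differed widely between RAB genes. On the FPKM scale, which corrects for gene length, 5 members averaged over 50 FPKM, 21 lay between 10 and 50, 16 between 1 and 10, and 21 under 1, of which 3 were listed at 0. The 5 highest members carried 39.0% of the summed RAB FPKM with control siRNA and 39.1% with SNHG5 siRNA. RAB32, a regulator of melanosomes and related organelles that also sits at mitochondria, was highest, with 90.1, 100.5 and 98.1 FPKM with control siRNA and 88.5, 104.8 and 86.3 FPKM with SNHG5 siRNA. RAB7A, the RAB of late endosomes and lysosomes, had 84.0, 86.7 and 83.4 FPKM against 90.7, 89.8 and 85.2 FPKM. RAB10, which serves exocytosis to the plasma membrane, had 86.2, 85.6 and 86.4 FPKM against 82.7, 78.2 and 83.0 FPKM. The ranges of these 3 genes over the 6 libraries overlapped. Within each library RAB32 was above RAB10, while the place of RAB7A against both changed between libraries. RAB1B and RAB1A, which act from the endoplasmic reticulum (ER) to the Golgi, followed with means of 83.3 and 64.6 FPKM. RAB1B had 70.6, 75.9 and 80.2 FPKM with control siRNA and 88.0, 97.7 and 87.5 FPKM with SNHG5 siRNA. In every SNHG5 siRNA library RAB1B was above RAB10, so its place by mean does not hold in each group. RAB1A had 63.7, 61.4 and 64.5 FPKM against 66.6, 66.1 and 65.3 FPKM.

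**Figure D1:**
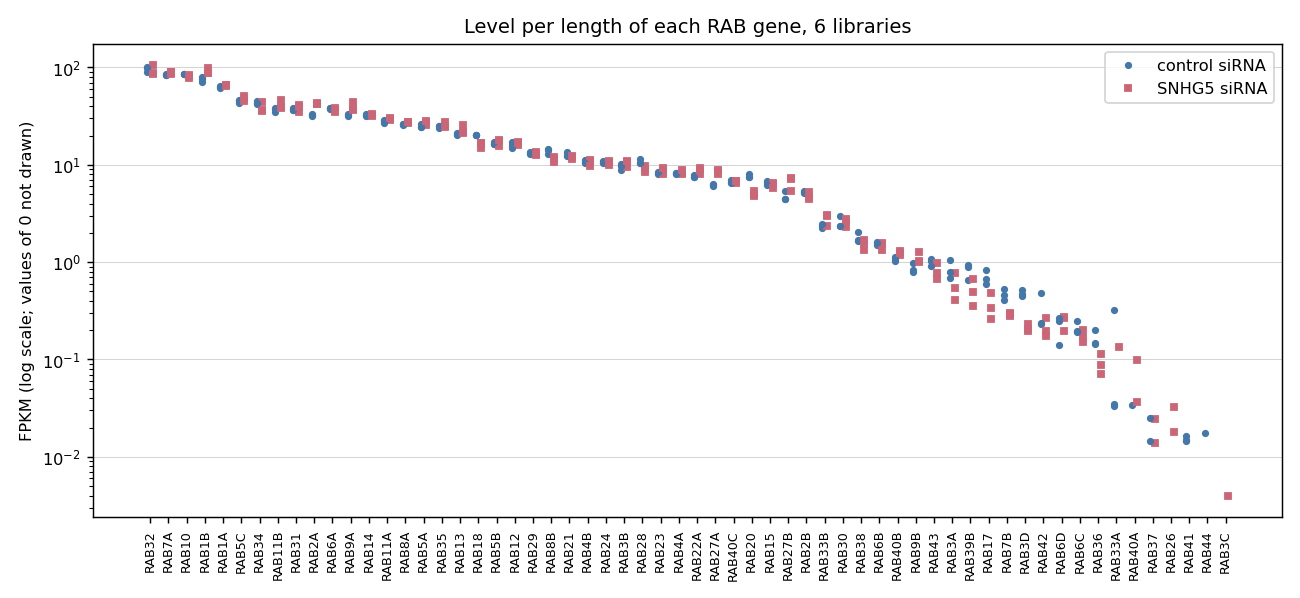
FPKM (log axis) of the 60 RAB genes not listed at 0, in order of their mean over 6 libraries. Circles are the 3 control siRNA libraries and squares the 3 SNHG5 siRNA libraries; the order runs from RAB32 at 94.7 FPKM to 7 members with at most 8 counts in a library.

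The summed RAB level was 1029, 1045 and 1047 FPKM with control siRNA and 1068, 1098 and 1057 FPKM with SNHG5 siRNA, a difference of 3.29% between the group means. As a share of all FPKM this was 0.374% and 0.383%. The sum over RAB genes of the ER, Golgi and lipid droplets was 243 ± 4.71 and 265 ± 2.47 FPKM (mean ± SD, n = 3), and that over RAB genes of exocytosis 168.9 ± 1.76 and 169.2 ± 3.97 FPKM. The mix of RAB transcripts by route differed little between groups, with 23.3% and 24.7% of the RAB sum for the ER and Golgi group and 16.2% and 15.8% for the exocytosis group. In RNA from whole cultures, a shift in the share of cells that express a gene and a shift of RNA per cell cannot be told apart.

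Of the 63 genes, 53 had enough counts to be tested by edgeR's quasi-likelihood test, and 11 rose and 10 fell with SNHG5 siRNA at an adjusted p under 0.05. That is 39.6% of the tested members, beside 40.2% of all 12508 genes tested (20.3% higher and 19.9% lower), so with this test the family's share lay near that of the table. Its median log2 fold change was 0.00 (-0.01 over all genes tested) and its median absolute log2 fold change 0.16 (0.17 over all genes tested). In CPM, 26 of 53 members had groups with no overlap, beside 49.8% of all genes tested. Of these 13 were higher (25% of all genes tested) and 13 lower (24.8%). With upper quartile scaling 6 RAB genes rose and 11 fell, 32.1% beside 41.1% of all genes (16.4% higher and 24.7% lower). Of all passing genes 39.9% were higher there, against 50.5% with TMM. On FPKM with 1 added, 5 rose and 6 fell of 47 tested, or 23.4% beside 34.8% of all genes. Without control siRNA replicate 1, 6 rose and 8 fell, 26.4% beside 31.7% of all genes (16.3% and 15.5%). Without control siRNA replicate 2, 6 rose and 9 fell, 28.3% beside 31.9% (16.3% and 15.6%). In each of these settings the family's share was the lower one. Without SNHG5 siRNA replicate 2, 13 rose and 11 fell, 45.3% beside 44.4% of all genes (22.8% and 21.7%).

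Level and base composition of the members that rose and fell were set side by side, with no test. The 11 that rose had mean levels of 2.57 to 83.3 FPKM (median 26.0), and none was under 1 FPKM. The 10 that fell had 0.128 to 41.3 FPKM (median 0.688), and 6 of them were under 1 FPKM. The 32 that did not pass had 0.193 to 94.7 FPKM (median 10.7), and 5 of them were under 1 FPKM. The same split by level was not computed over all genes tested, so it is not shown to be particular to RAB genes. The median GC content of the longest annotated transcript was 38.4% (35.9% to 61.1%) for those that rose. It was 54.7% (36.2% to 60.5%) for those that fell, over nearly the same range. For those that did not pass it was 46.4% (36.9% to 64.4%), and 47.9% over the tested genes with a transcript in the annotation. The part of level and GC content in these changes was not tested.

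**Figure D2:**
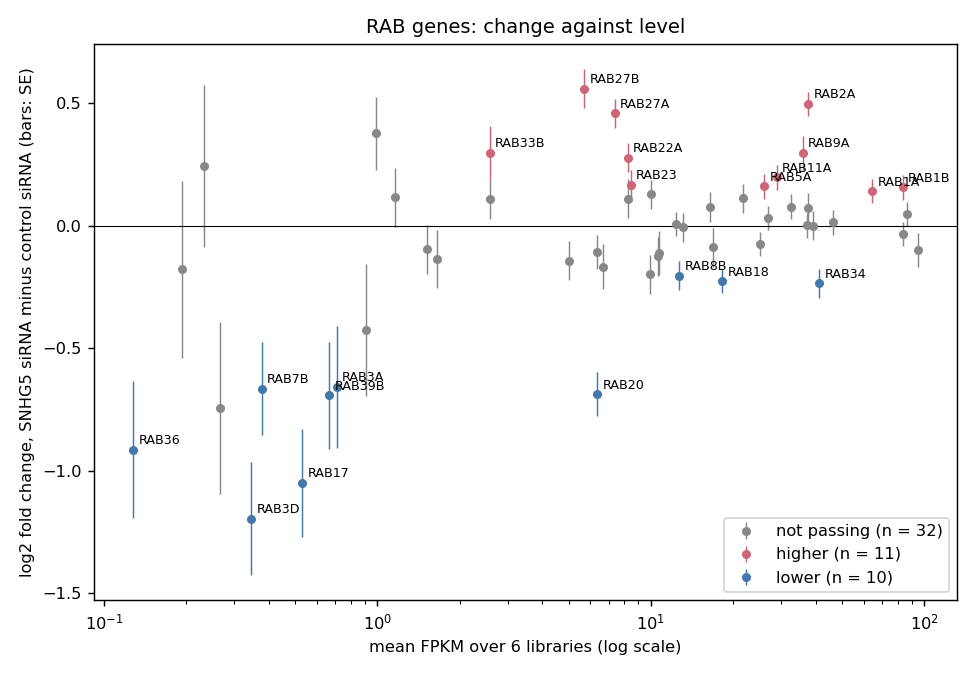
Log2 fold change of the 53 tested RAB genes (SNHG5 siRNA minus control siRNA, bars are the SE of the fit) against the mean FPKM on a log axis. The 11 that rose lie at 2.57 FPKM or more, and 6 of the 10 that fell lie under 1 FPKM, as do 5 of the 32 that did not pass.

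The series title names miR-92a-3p, so RAB transcripts that hold its site are shown. The first line is the mature miRNA from RefSeq (GRCh38.p14) with its seed, bases 2 to 8, in capitals. The other lines are stretches of the annotated 3' UTRs of RAB8B and RAB23, which hold the site and passed the test, with the 7 bases complementary to the seed in capitals.
miR-92a-3p: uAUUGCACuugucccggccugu
RAB8B: aaatttagctGTGCAATataggtgcgt
RAB23: attgaaacttGTGCAATatctgtgtaa

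These stretches lie at chr15:63266732-63266758 (plus strand) for RAB8B and chr6:57189945-57189971 (minus strand) for RAB23, both in GRCh38. RAB23 holds a second site in the 3' UTR. Of the 53 tested RAB genes, 9 (17.0%) hold the site in an annotated 3' UTR, beside 1751 of 12292 tested genes (14.2%). Of the RAB genes with the site, RAB14, RAB30, RAB3B, RAB6B and RAB7A did not pass. Of the 9, RAB3D, RAB36 and RAB8B fell and RAB23 rose (44.4%, beside 41.0% of all tested genes with the site, 395 higher and 323 lower), with a median log2 fold change of 0.05, beside 0.00 for the 44 RAB genes without the site and 0.02 for all tested genes with it. A match of letters is a description and does not show that the miRNA binds there.

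Among the RAB genes of regulated exocytosis, RAB27A and RAB27B, which dock secretory granules and exosome-bearing compartments at the plasma membrane, rose together. RAB27B (chromosome 18, 54717860 to 54895516, plus strand) had 63.5, 53.9 and 57.0 CPM with control siRNA and 92.7, 72.9 and 91.4 CPM with SNHG5 siRNA. The groups did not overlap, and SNHG5 siRNA replicate 2 was the lowest of its group. The log2 fold change was 0.56 ± 0.08 (SE, edgeR adjusted p = 2.20e-05), a 1.47-fold rise. In FPKM the groups of RAB27B overlapped, with 5.44, 4.47 and 4.42 against 7.19, 5.43 and 7.26. RAB27B did not pass in 1 of 13 alternatives. RAB27A (chromosome 15, 55202966 to 55319113, minus strand) had 43.8, 46.0 and 48.4 CPM against 65.6, 60.7 and 63.5 CPM, without overlap. This was a 1.38-fold rise (log2 fold change 0.46 ± 0.06 SE, edgeR adjusted p = 8.62e-06). Exons of RAB27A overlap those of PIGB on the other strand and PIGBOS1 on the same strand. PIGBOS1 rose by 0.46 from 3.75 CPM, and PIGB had 0.26 (edgeR adjusted p = 0.0529) at 13.1 CPM.

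The RAB3 genes, which control the release of secretory granules and synaptic vesicles, were led in level by RAB3B, which did not pass, while RAB3A and RAB3D fell. RAB3D (chromosome 19, 11322046 to 11346270, minus strand) had the largest fall of the family, from 42, 45 and 43 counts to 20, 19 and 20 counts. This was 2.05, 2.22 and 2.36 CPM against 0.903, 0.956 and 1.03 CPM, a 2.29-fold fall (log2 fold change -1.19 ± 0.23 SE, edgeR adjusted p = 4.63e-04). The groups were far apart relative to the spread within each, at a low level. RAB3A, the main RAB of synaptic vesicles, fell from 2.05, 1.43 and 1.76 CPM to 1.22, 1.11 and 0.978 CPM (log2 fold change -0.66, edgeR adjusted p = 0.0426). It passed without control siRNA replicate 2 and failed to pass without each of the other 5 libraries in turn (edgeR adjusted p from 0.0596 to 0.185), as it did with DESeq2 (adjusted p = 0.112). RAB3B had 9.98 FPKM on average, beside 0.708 FPKM for RAB3A and 0.344 FPKM for RAB3D. RAB3B had a log2 fold change of 0.13 that did not pass (edgeR adjusted p = 0.102); without SNHG5 siRNA replicate 2 it was 0.19 and passed (adjusted p = 9.90e-04).

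Exons of RAB3D overlap TMEM205 on the same strand and CCDC159 on the other. TMEM205 fell by 0.31 at 18.8 CPM with control siRNA and CCDC159 had 0.13 (edgeR adjusted p = 0.722). Exons of RAB3A overlap MPV17L2 on the other strand, which fell by 0.38 at 16.0 CPM with control siRNA. Whether reads were assigned by strand is not given in the sources used here, and the part of these neighbours in the counts was not tested. In this exocytosis group RAB8B also fell, from 145, 133 and 151 CPM to 125, 119 and 128 CPM (log2 fold change -0.20, edgeR adjusted p = 0.00814), but not once control siRNA replicate 3 was dropped (-0.16, adjusted p = 0.0507). Its close relative RAB8A, like RAB10 and RAB13, did not pass. Of 9 tested genes in the exocytosis group 2 rose, 3 fell and 4 did not pass. Thus 55.6% passed, beside 40.2% of all genes tested.

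On the route between the ER and the Golgi, RAB2A, RAB1A and RAB1B rose. RAB2A, which acts on membranes between the ER and the Golgi, had 117.6, 119.9 and 125.6 CPM with control siRNA and 169.8, 177.8 and 165.1 CPM with SNHG5 siRNA. The groups were separated by a gap larger than the range of either, and the rise was 1.41-fold (log2 fold change 0.50 ± 0.05 SE, edgeR adjusted p = 5.62e-07), the smallest p of the family. RAB1B rose from 165.3, 166.4 and 165.7 CPM to 180.3, 191.9 and 182.5 CPM, a log2 fold change of 0.16 (edgeR adjusted p = 0.0172), and did not pass without control siRNA replicate 1 (0.15, adjusted p = 0.0630) or control siRNA replicate 2 (0.16, adjusted p = 0.0541). RAB1A rose by 0.14 (edgeR adjusted p = 0.0409), and did not pass without control siRNA replicate 1 (0.12), control siRNA replicate 2 (0.12) or SNHG5 siRNA replicate 1 (0.14). On FPKM the log2 fold change of RAB1A was 0.06 (limma adjusted p = 0.284).

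RAB33B, a Golgi RAB that binds the autophagy protein ATG16L1, had 8.84, 8.62 and 10.0 CPM with control siRNA and 12.1, 9.81 and 11.8 CPM with SNHG5 siRNA. The groups overlapped, through control siRNA replicate 3 and SNHG5 siRNA replicate 2. It passed at a log2 fold change of 0.30 (edgeR adjusted p = 0.0331) but not without control siRNA replicate 1 (0.27), control siRNA replicate 2 (0.26), SNHG5 siRNA replicate 1 (0.24) or SNHG5 siRNA replicate 3 (0.26). RAB18, which acts on the ER and on lipid droplets, fell from 122.0, 125.4 and 130.2 CPM to 110.0, 104.2 and 108.7 CPM (log2 fold change -0.23, edgeR adjusted p = 0.00225). It was the only member of the ER, Golgi and lipid droplet group of 12 tested genes that fell; 4 rose and 7 did not pass, so 41.7% passed, beside 40.2% of all genes tested. RAB6A, the main Golgi RAB of its subfamily, did not pass. RAB6C and RAB6D, copies derived from RAB6A, held 9 to 22 counts per library, and reads of the 3 genes may not be separable.

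Of 15 tested genes of early endosomes and recycling, 3 rose, 2 fell and 10 did not pass, so 33.3% passed, beside 40.2% of all genes tested. RAB22A, which directs cargo from early endosomes back to the surface, rose from 67.5, 66.9 and 70.4 CPM to 83.0, 79.2 and 86.3 CPM without overlap (log2 fold change 0.28 ± 0.06 SE, edgeR adjusted p = 6.79e-04). RAB11A, the RAB of the recycling endosome, rose from 133.8, 138.4 and 140.5 CPM to 152.1, 164.4 and 156.9 CPM (log2 fold change 0.20, edgeR adjusted p = 0.00527). RAB5A, which drives the fusion of early endosomes, rose by 0.16 (edgeR adjusted p = 0.0233). Its call ended without control siRNA replicate 1 (0.14), control siRNA replicate 2 (0.17), SNHG5 siRNA replicate 1 (0.17) or SNHG5 siRNA replicate 3 (0.15). On FPKM with 1 added RAB22A had 0.17 (limma adjusted p = 0.0524), RAB11A 0.08 (adjusted p = 0.208) and RAB5A 0.10 (adjusted p = 0.154).

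Those that fell were RAB20 and RAB17. RAB20 (chromosome 13, 110523066 to 110561733, minus strand), which acts on endosomes and maturing phagosomes, had 12.9, 12.8 and 12.8 CPM with control siRNA and 8.13, 8.05 and 7.72 CPM with SNHG5 siRNA. The spread within each group was small beside the gap, and the fall was 1.61-fold (log2 fold change -0.69 ± 0.09 SE, edgeR adjusted p = 1.13e-05). RAB17 (chromosome 2, 237574322 to 237601614, minus strand), known from recycling in polarised epithelia, had 77, 105 and 66 counts against 61, 34 and 30 counts. In CPM this was 3.76, 5.17 and 3.63 against 2.75, 1.71 and 1.54, a 2.07-fold fall (log2 fold change -1.05 ± 0.22 SE, edgeR adjusted p = 7.63e-04) with no overlap. SNHG5 siRNA replicate 1 was the nearest to the control libraries.

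**Figure D3:**
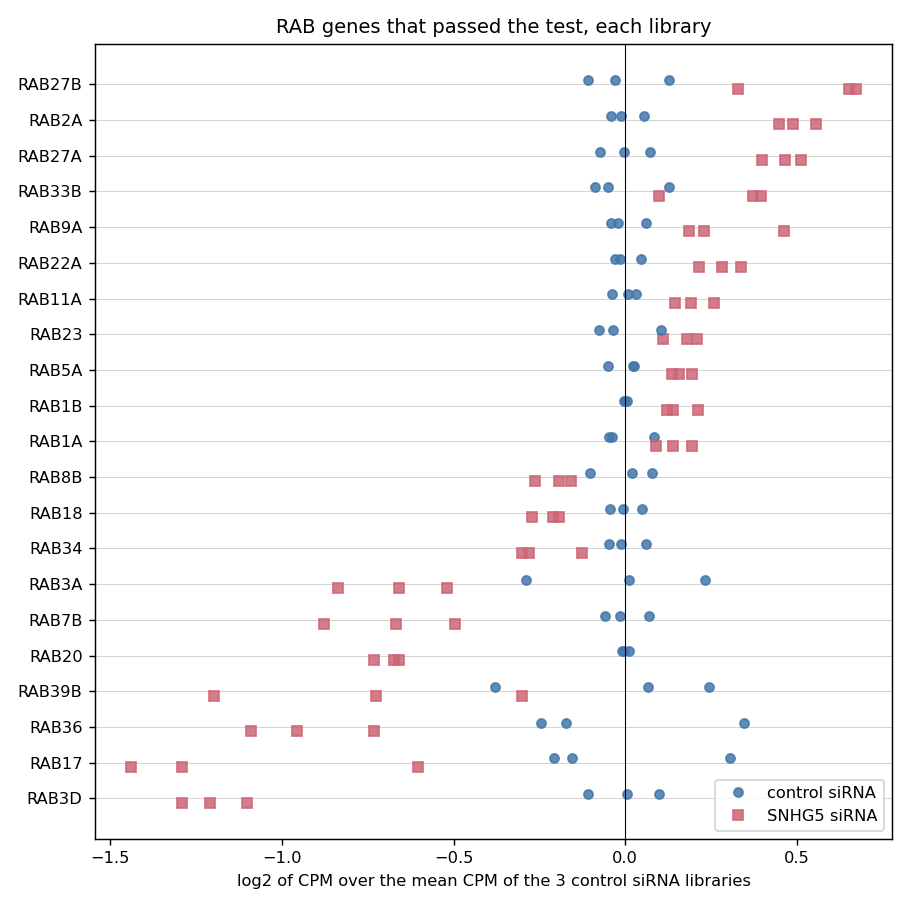
Each of the 21 RAB genes that passed, as log2 of its CPM in a library over its mean in the 3 control siRNA libraries. Circles are control siRNA and squares SNHG5 siRNA, in order of log2 fold change from RAB27B at the top to RAB3D; the groups overlap for RAB33B and RAB39B.

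In the group of late endosomes, lysosomes, autophagy and related organelles, 12 genes were tested, of which 1 rose, 4 fell and 7 did not pass, so 41.7% passed, near the 40.2% of all genes tested. RAB9A, which returns receptors from late endosomes to the Golgi, rose from 50.2, 49.5 and 53.2 CPM to 59.8, 70.3 and 58.0 CPM, with SNHG5 siRNA replicate 2 the highest (log2 fold change 0.30 ± 0.07 SE, edgeR adjusted p = 0.00227). RAB9B, its paralogue, had a log2 fold change of 0.38 at under 1 FPKM that did not pass (edgeR adjusted p = 0.0518) and passed without SNHG5 siRNA replicate 1 (0.45, adjusted p = 0.0465). RAB7B, which takes part in transport from endosomes to the Golgi, fell from 2.83, 3.004 and 2.75 CPM to 2.03, 1.56 and 1.80 CPM (log2 fold change -0.67 ± 0.19 SE, edgeR adjusted p = 0.0102). RAB7A, at 86.6 FPKM on average against 0.378 FPKM for RAB7B, had a log2 fold change of 0.05 that did not pass (edgeR adjusted p = 0.439).

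RAB36 and RAB34 are related RABs linked to the position of lysosomes, and RAB34 also to cilium formation. RAB36 (chromosome 22, 23145326 to 23164350, plus strand) had 39, 27 and 23 counts against 20, 14 and 15 counts, or 1.91, 1.33 and 1.26 CPM against 0.903, 0.704 and 0.772 CPM. It fell by 0.91 on the log2 scale (edgeR adjusted p = 0.0149) and did not pass without control siRNA replicate 1, its highest library (-0.70, adjusted p = 0.108). RAB34 fell at a level about which the table is far more precise, from 174.6, 183.6 and 170.5 CPM to 142.9, 161.4 and 145.1 CPM (log2 fold change -0.23, edgeR adjusted p = 0.00282), and did not pass on FPKM with 1 added (-0.17, limma adjusted p = 0.105). RAB39B, a neuronal RAB of the Golgi and endosomes, had 2.93, 3.99 and 4.51 CPM against 2.30, 1.66 and 3.09 CPM. Its groups overlapped, and its log2 fold change of -0.69 (edgeR adjusted p = 0.0158) did not pass without control siRNA replicate 2 (-0.65) or control siRNA replicate 3 (-0.56). RAB32 had -0.10 (edgeR adjusted p = 0.249); without SNHG5 siRNA replicate 2, where it was highest, it was -0.19 and passed (adjusted p = 0.00291).

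Of the 5 tested members in the group of cilia, ubiquitin ligases and others, RAB23 rose and 0 fell. Thus 20.0% passed, beside 40.2% of all genes tested. RAB23, an inhibitor of Hedgehog signalling, had 41.7, 42.9 and 47.2 CPM with control siRNA and 49.7, 47.4 and 50.8 CPM with SNHG5 siRNA, groups that nearly touched. Its log2 fold change of 0.17 (edgeR adjusted p = 0.0440) did not pass without control siRNA replicate 1 (0.13), control siRNA replicate 2 (0.15), SNHG5 siRNA replicate 1 (0.16) or SNHG5 siRNA replicate 3 (0.15), nor with DESeq2 (adjusted p = 0.0709). RAB28, a ciliary RAB, had -0.20 (edgeR adjusted p = 0.0641) and passed in 6 of 13 alternatives, among them upper quartile scaling (-0.24, adjusted p = 0.0286), FPKM with 1 added (-0.23, limma adjusted p = 0.0180) and without SNHG5 siRNA replicate 2 (-0.23, adjusted p = 0.0170). RAB40B, RAB40C and RAB42 did not pass. RAB42 had 9 to 28 counts per library and a log2 fold change of -0.74 (edgeR adjusted p = 0.103).

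The 32 members that were tested and did not pass had log2 fold changes from -0.74 to 0.38. Another 10 were too low to test. RAB19, RAB25 and RAB39A had 0 counts in all 6 libraries, where 3 counts, the limit that a count of 0 allows, correspond to 0.136 to 0.165 CPM (counting error only). RAB3C, RAB26, RAB33A, RAB37, RAB40A, RAB41 and RAB44 had at most 8 counts in a library. RAB25, a RAB of epithelia, and RAB3C and RAB26, known from neurons and secretory cells, were thus not detectable or near the floor in these KGN libraries.

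Shifts between paralogues were read from ratios within each library, which do not depend on library scaling. For 21 pairs of tested genes with the same number and different letters, from 12 subfamilies, the log2 ratio of CPM was compared between groups by an exact 2-sided permutation test. In 8 pairs the ratio did not overlap between groups, some of which share a gene. Among single genes 49.8% had no overlap in CPM, and the share over other gene pairs was not computed. Each of these gave an exact permutation p = 0.1, the smallest that 3 against 3 libraries allow, and 0.263 when adjusted over the 21 pairs, so no pair could pass. CPM are not per length, so each ratio is used only for its change.

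The ratio of RAB2A to RAB2B rose from 5.28, 5.88 and 5.53 to 9.17, 9.21 and 7.69. RAB2B itself had a log2 fold change of -0.14 that did not pass (edgeR adjusted p = 0.194). The ratio of RAB3B to RAB3D rose from 85.05, 70.2 and 73.3 to 210, 176 and 188, a change of 1.33 on the log2 scale, and that of RAB7A to RAB7B from 97.7, 94.3 and 101.7 to 146, 186 and 157. Smaller changes were those of RAB5A to RAB5B (0.26), RAB8A to RAB8B (0.24), RAB11A to RAB11B (0.20) and RAB40B to RAB40C (0.28), and RAB3A to RAB3B changed by -0.78. In deposited FPKM the change was 0.07 for RAB5A to RAB5B and -0.07 for RAB11A to RAB11B, so these did not hold across the 2 tables. The ratio of RAB27A to RAB27B overlapped between groups, with a change of -0.10 (exact permutation p = 0.6), and that of RAB9A to RAB9B changed by -0.08 (exact permutation p = 0.5).

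**Figure D4:**
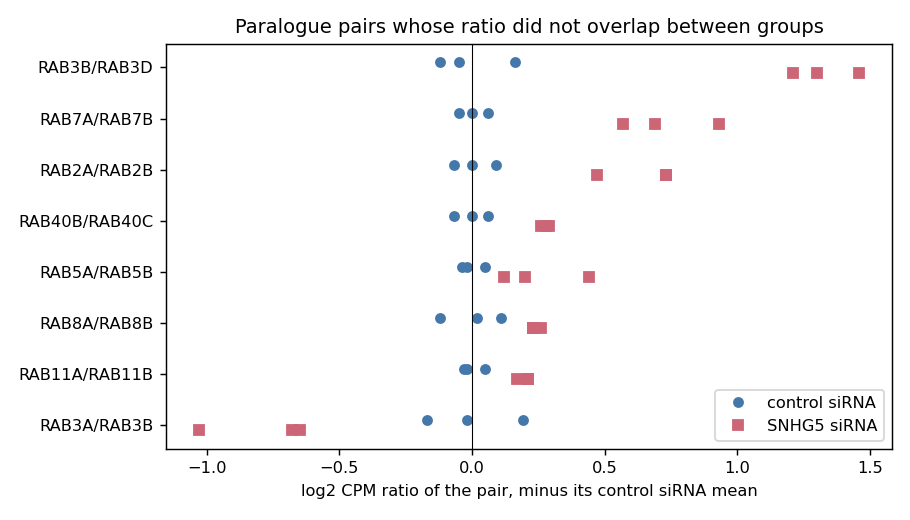
Log2 ratio of CPM for the 8 paralogue pairs whose ratio did not overlap between groups, set to 0 at the mean of the 3 control siRNA libraries. Circles are control siRNA and squares SNHG5 siRNA; RAB3B/RAB3D has the largest change, 1.33, and RAB3A/RAB3B the only fall, -0.78.

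The machinery that loads, switches and reads RAB proteins was counted from 5 lists with 150 genes, 141 of them tested. Of these, 41 rose and 26 fell, 47.5% of those tested beside 40.2% of all genes tested, with a median log2 fold change of 0.03. Among 9 genes for lipid anchoring and membrane recycling, 3 rose and 1 fell (44.4%). ICMT, which methylates the prenylated end of RAB and other proteins, rose from 132 ± 4.83 to 199 ± 1.33 CPM (mean ± SD, n = 3; log2 fold change 0.59, edgeR adjusted p = 3.66e-08). RABAC1, a membrane acceptor of prenylated RABs, rose by 0.43. RABGGTA, a subunit of the enzyme that adds the lipid, fell by 0.25, a call that ended without control siRNA replicate 1 (-0.21), control siRNA replicate 2 (-0.22), SNHG5 siRNA replicate 2 (-0.19) or SNHG5 siRNA replicate 3 (-0.24).

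Of 35 tested exchange factors 7 rose and 5 fell, 34.3% beside 40.2% of all genes tested. DENND5A, which acts on RAB39 and binds RAB6, rose from 93.4 ± 1.42 to 159 ± 6.80 CPM (log2 fold change 0.77, edgeR adjusted p = 2.30e-09). RIN2 and RIN1, both exchange factors of RAB5, went in opposite directions, with 0.59 and -0.53, and ANKRD27, which acts on RAB21, rose by 0.40. Of 14 subunits of TRAPP, the exchange complex of RAB1, 4 rose and 1 fell (35.7%). TRAPPC12 rose by 0.46, TRAPPC2 by 0.40 and TRAPPC1 by 0.30, while TRAPPC6A fell by 0.95, from 2.27 ± 0.0215 to 1.18 ± 0.233 CPM.

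Of 33 tested GAPs 12 rose and 8 fell, 60.6% of those tested beside 40.2% of all genes tested. TBC1D10B, whose known substrates include RAB35 and RAB27A, rose from 28.0 ± 2.51 to 43.3 ± 1.16 CPM (log2 fold change 0.63, edgeR adjusted p = 1.76e-06). EVI5L (0.52) and TBC1D9 (0.51) also rose, and TBC1D8 fell by 0.63. Among 50 tested effectors 15 rose and 11 fell (52.0%). BICD2, which links RAB6 vesicles to dynein, had the largest rise of these lists, 1.41. RILP, which binds RAB7 on lysosomes, fell from 3.96 ± 0.452 to 2.23 ± 0.259 CPM (log2 fold change -0.83, edgeR adjusted p = 0.00101). RPH3AL, an effector of RAB3 and RAB27, fell by 0.62 at a low level and did not pass without control siRNA replicate 2 (-0.52, adjusted p = 0.0638). SYTL2, an effector of RAB27, fell by 0.40, from 19.9 ± 1.40 to 15.1 ± 0.102 CPM, while both RAB27 genes rose.

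**Figure D5:**
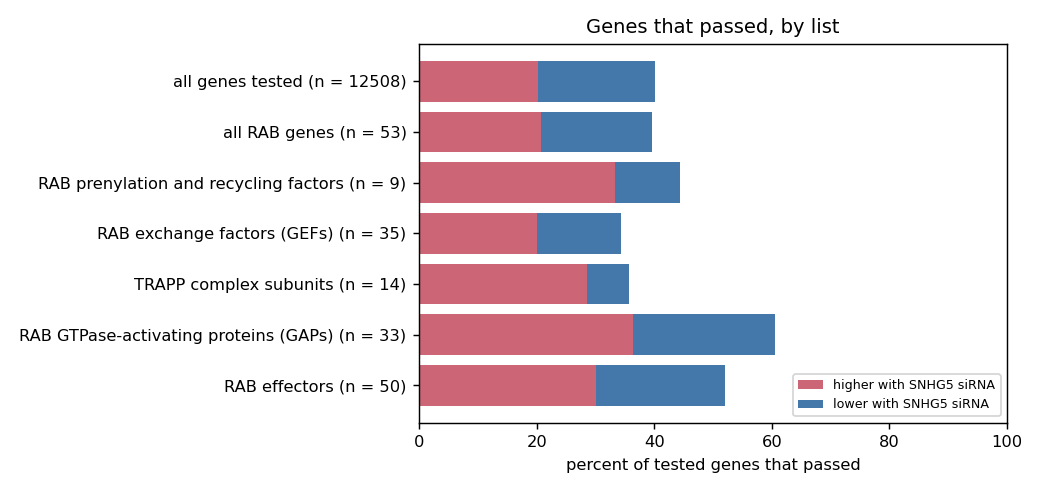
Percent of tested genes that passed, higher (left part of each bar) and lower (right part) with SNHG5 siRNA, for all 12508 genes, the 53 RAB genes and the 5 lists of RAB regulators and effectors. The RAB genes, at 39.6%, lie beside all genes at 40.2%, and the GAPs are at 60.6%.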

How the data were processed

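RNA was measured in 6 libraries of KGN cells. Per the labels' protocols, RNA was taken 48 hours after transfection and 1 µg of total RNA went into the SMARTER mRNA-seq kit. Per the submitters' processing notes, reads were trimmed with Trimmomatic and the build was GRCh38; the aligner, the counting program, the annotation and the use of strand are not given in the sources used here. Raw counts and FPKM (fragments per length of gene and size of library) for 20030 rows of gene names were deposited by the authors, with 0 columns of other samples. Both tables were used as deposited.

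Counts were scaled with TMM factors (0.9977 to 1.003) in edgeR 4.0.16 (R 4.3.3). filterByExpr kept 12508 genes, to which edgeR's quasi-likelihood test was applied, SNHG5 siRNA minus control siRNA, 2-sided, with no replicate term. P-values were adjusted by the Benjamini-Hochberg method over all genes tested, and the SE was taken from the same F statistic. The test was tested on simulated data first. CPM use total counts times the TMM factor. Alternatives were upper quartile scaling, DESeq2 1.42.0, no filter, a replicate block, leaving out each library, an added requirement on the size of the fold (at least 1.25-fold), and limma 3.58.1 on log2(FPKM + 1) or log2(FPKM + 0.1) with a minimum of 0.5 FPKM in 3 libraries, the first also without it.

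The family members and all gene lists were chosen with earlier results of these data known. Named were all RAB genes that passed, with values by library for the 12 with the largest absolute log2 fold change and the 5 with the highest FPKM, and from each list up to 4 passing genes, the largest changes first. Other RAB genes given with values, and the overlapping genes, were chosen after their values were seen. Gene positions, 3' UTRs and exon overlaps come from GENCODE release 29 (GRCh38), in which all 63 members were found; the annotation behind the counts may differ. Some genes and sequences are not reported here. Replicates are the libraries the labels number, and no label says that they were separate cultures, so p measures only the spread between these libraries.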

Additional observations from a re-analysis of the deposited data

How the results depend on the processing

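Of the 21 RAB genes that passed, 8 kept their direction and their side of the threshold in every alternative that gave a value, the fold requirement aside (RAB27A, RAB2A, RAB9A, RAB17, RAB18, RAB20, RAB3D and RAB7B), and 12 did so with any 1 library left out. The number that rose, 11, was 6 with upper quartile scaling and 5 on FPKM with 1 or 0.1 added. On FPKM without a filter 4 rose and 8 fell, 20.0% beside 22.8% of all genes. With the added fold requirement 3 rose and 7 fell, and 9.96% of all genes met it upward and 10.8% downward. With 1 library left out 6 to 13 rose. There 26.4% to 45.3% of the tested RAB genes passed, beside 31.7% to 44.4% of all genes. The number that fell was 6 on FPKM with 1 or 0.1 added, against 10, and 7 to 11 with 1 library left out. The median log2 fold change of the RAB genes, 0.00, was -0.04 with upper quartile scaling and 0.02 on FPKM with 1 or 0.1 added. The regulator and effector lists had 67 passing genes (47.5%, beside 40.2% of all genes tested), and 44 on FPKM without a filter, where 22.8% of all genes passed. The cause of these differences was not tested. Deviations of libraries with the same number correlated at 0.0463, 0.13 and 0.0264 for replicates 1, 2 and 3. With 3 libraries per group this cannot settle whether the numbers pair the libraries. With the number as a block, 13 RAB genes rose and 11 fell (45.3%, beside 45.7% of all genes tested). The tested RAB genes under 1 FPKM rest on at most 122 counts in a library, which limits their precision.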

Other observations

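Relatives of the RAB family that lie outside the naming rule were also measured. Of 8 tested RAB-like genes 3 rose and 0 fell by edgeR's quasi-likelihood test, 37.5% beside 40.2% of all genes tested. RABL6, a RAB-like GTPase of proliferating cells, rose from 102 ± 6.29 to 155 ± 5.46 CPM (mean ± SD, n = 3; log2 fold change 0.61, edgeR adjusted p = 1.18e-07). RABL3 rose by 0.35, from 46.3 ± 1.75 to 58.9 ± 1.68 CPM. IFT27, the RAB-like subunit of the intraflagellar transport train, rose by 0.60 from 4.55 ± 0.765 CPM. All 3 had groups with no overlap in CPM, as did 49.8% of all genes tested.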
